A study of Caenorhabditis elegans with 2 samples.

Results

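Translation factors and aminoacyl-tRNA synthetases were examined for ChIP-seq signal of CEH-58, a homeodomain transcription factor, in Caenorhabditis elegans. The genes were taken by name: protein-coding genes of the Ensembl WBcel235 annotation named eif-, eef- or with an amino acid letter before ars-. This gave 63 of 19973 protein-coding genes, of which 25 were named as initiation factors, 6 as elongation factors and 32 as tRNA synthetases. No measured value entered this naming rule, but it was chosen with earlier results of these data known. In ChIP-seq, chromatin is precipitated with an antibody, here against GFP, and its DNA is sequenced. The study has 2 biological replicates of 1 group. These were whole young adults of strain OP808 at 65 hours, synchronised by starving L1 larvae after bleaching. The strain carries the integrated transgene wgIs808, a fosmid insertion in which ceh-58 is fused to TY1, EGFP and 3xFLAG tags, together with unc-119(+), in an unc-119 (tm4063) background. There was no second genotype or treatment, and the whole animal mixes all tissues, so the comparison is between these genes and all other protein-coding genes.

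Initiation factors place the small ribosomal subunit and the initiator tRNA at the start codon. Elongation factors then deliver charged tRNAs and move the ribosome along the message, and tRNA synthetases load each tRNA with its amino acid. Genes of this kind are active in nearly every cell of the animal. In the worm, many genes lie close together in operons, and many messages receive a spliced leader at their 5′ end, so that an annotated start may lie downstream of the place where transcription begins. Not every matched gene is a classical factor: eif-4A3 encodes the helicase of the exon junction complex, and eif-6 encodes a factor that keeps the ribosomal subunits apart. The names also miss some factors, such as egl-45, which encodes a subunit of eIF3.

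Each gene was scored by the authors' candidate list that compares the replicates, which holds 105945 candidate peaks. A gene's value was the highest signal among candidates whose summit lay 1000 bp upstream to 200 bp downstream of an annotated start. Genes without such a candidate were counted at 0. The signal is the authors' own value per peak, its scaling is not stated, and the depth of the libraries is unknown. Candidates carry the authors' score for the irreproducible discovery rate (IDR), which reaches at most 1000. It is higher for peaks that rank high in both sets compared, so weak peaks of nearly equal signal can score low. The authors' conservative list of 483 peaks begins at a score of 830, an IDR of 0.01.

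The sequences at 5 of these genes, on ce11 and in each gene's own direction, show what kind of DNA carried the values below. They are the peaks of rars-1 and eif-3.G, which are in the conservative list, and the highest candidates of a second synthetase (qars-1), an initiation factor (eif-2Bgamma) and an elongation factor (eef-1A.2). Capitals mark the bases within 10 bp of the summit. At rars-1 the 70 annotated 5′ UTR bases that hold the summit are left out, so only the parts to either side are given.
rars-1, upstream of its outermost start (chrIII:4917178-4917229, minus strand): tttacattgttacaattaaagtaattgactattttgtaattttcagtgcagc
rars-1, from its innermost start (chrIII:4916994-4917107, minus strand): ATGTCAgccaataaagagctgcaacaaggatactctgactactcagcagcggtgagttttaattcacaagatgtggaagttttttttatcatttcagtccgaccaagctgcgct
eif-3.G, upstream peak (chrII:8441569-8441804, plus strand): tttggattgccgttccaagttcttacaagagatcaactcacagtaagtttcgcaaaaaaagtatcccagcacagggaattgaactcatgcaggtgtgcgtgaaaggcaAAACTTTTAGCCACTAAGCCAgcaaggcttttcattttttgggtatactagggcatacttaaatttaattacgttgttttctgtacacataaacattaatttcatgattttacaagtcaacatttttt
qars-1, highest candidate (chrIV:15010911-15011146, minus strand): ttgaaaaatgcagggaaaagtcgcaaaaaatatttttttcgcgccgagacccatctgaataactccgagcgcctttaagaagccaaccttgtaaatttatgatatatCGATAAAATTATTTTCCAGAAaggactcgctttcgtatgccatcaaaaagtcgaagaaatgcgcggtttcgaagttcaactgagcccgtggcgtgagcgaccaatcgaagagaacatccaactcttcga
eif-2Bgamma, highest candidate (chrII:6968061-6968296, minus strand): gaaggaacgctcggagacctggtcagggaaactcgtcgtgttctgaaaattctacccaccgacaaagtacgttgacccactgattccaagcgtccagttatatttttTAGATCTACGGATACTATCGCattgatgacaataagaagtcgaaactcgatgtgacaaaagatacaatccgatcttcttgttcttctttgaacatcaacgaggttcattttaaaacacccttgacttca
eef-1A.2, highest candidate (chrX:7823519-7823754, plus strand): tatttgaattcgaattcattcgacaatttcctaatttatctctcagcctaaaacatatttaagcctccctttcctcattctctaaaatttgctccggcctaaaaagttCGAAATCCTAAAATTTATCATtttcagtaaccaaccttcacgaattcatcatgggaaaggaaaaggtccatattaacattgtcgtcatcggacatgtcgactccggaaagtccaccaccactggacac
GC content was 25% in the upstream part at rars-1, which is rich in A and T, and 42.1% in the part from its start codon on. It was 35.6% at eif-3.G, 41.9% at qars-1, 41.5% at eif-2Bgamma and 38.1% at eef-1A.2. TAATTA, a palindrome that many homeodomain proteins bind, lay in the eif-3.G peak and in none of the other printed stretches.

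The arginyl-tRNA synthetase gene rars-1 (WBGene00004679, chrIII:4914088-4917177, minus strand) was the only one of the 63 genes with a conservative peak in its promoter window. That is 1.59% of the genes, against 0.796% of all protein-coding genes, and it rests on 1 gene. The peak had a signal of 67.3, below the conservative list's median of 72.4, and ranked 311 of 483. Its signals were 29.5 in replicate 1 and 38.5 in replicate 2. The larger was 1.30 times the smaller, a smaller ratio than at the median gene of the 63, given below. The summit lay in an annotated 5′ UTR exon, 5 bp upstream of the nearest of 4 starts and 65 bp downstream of the outermost. All 31-base words within 50 bp of the summit were unique in the genome. No tRNA, snoRNA or snRNA gene lay within 200 bp. Of all protein-coding genes, 112 (0.561%) had a higher value.

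The optimal list, the looser thresholded list of the whole series with 732 peaks, again held rars-1 and no other of the 63 genes in a promoter window, at an IDR score of 1000, against 1.18% of all protein-coding genes. Its score in the conservative list was 890. None of the 63 genes had a peak from either replicate's own thresholded list in the window, where 0.260% of all protein-coding genes had a peak of replicate 1 and 0.120% one of replicate 2. These lists are short, with 156 and 92 peaks, so at such shares fewer than 1 gene of 63 would be reached. The rars-1 peak was thus in the lists that join the replicates and in neither replicate's own.

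The largest peak near any of the 63 genes lay just outside the window, upstream of eif-3.G (WBGene00001230), which encodes an RNA-binding subunit of eIF3. Its signal was 149.8, rank 15 of the 483 conservative peaks, with 88.7 in replicate 1 and 63.2 in replicate 2. It was in all 4 thresholded lists, and its IDR score was the maximum of 1000. The summit lay 1080 bp upstream of the start, in an intron of lips-10. Inside the window, the highest eif-3.G candidate had a signal of 26.9, with 22.6 in replicate 1 and 16.2 in replicate 2, and lay in a coding exon of eif-3.G, 183 bp downstream of a start. The upstream summit was thus far higher than anything in the window, in both replicates. No other protein-coding start was nearer to it than that of eif-3.G.

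The eif-3.G peak held letters known from the internal promoters of tRNA genes, box A and box B. On the strand opposite to eif-3.G it read TGGCTTAGTGG and, 34 bases on, GTTCAATTCC. These match TGGC, any 2 bases and AGTGG for box A, and GTTC, any base, A, any 2 bases and CC for box B, searched on both strands of each peak with box A first and both within 120 bp. The patterns were chosen after this sequence was seen, so the match itself is a description. Of all 483 conservative peaks 8 (1.66%) held both. They were 3 of the 55 with a summit within 200 bp of an annotated tRNA gene (5.45%) and 5 of the other 428 (1.17%). The eif-3.G peak, from which the patterns were chosen, is itself among these 8 and among these 5. Among all candidates the share was 0.187%, and among the highest candidates of all protein-coding genes 0.210%. None of the 56 highest candidates of translation genes held both. No tRNA gene, other RNA gene of the classes searched or pseudogene was annotated within 1000 bp of the eif-3.G summit. All 31-base words around it were unique in the genome.

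With a wider window of 2000 bp upstream to 500 bp downstream, conservative peaks reached rars-1 and eif-3.G (3.17% of the 63 genes, against 1.60% of all protein-coding genes). The optimal list added eif-2alpha, for 3 genes (4.76%, against 2.40% of all). eif-2alpha encodes the subunit of eIF2 whose phosphorylation lowers translation under stress. Its peak had a signal of 60.4, with 24.4 in replicate 1 and 30.3 in replicate 2. The summit lay 1168 bp upstream of eif-2alpha in a coding exon of phb-1, 160 bp downstream of the start of phb-1, a prohibitin gene, which it is nearer to. Both shares are small counts set beside a background of the same order.

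**Figure D1:**
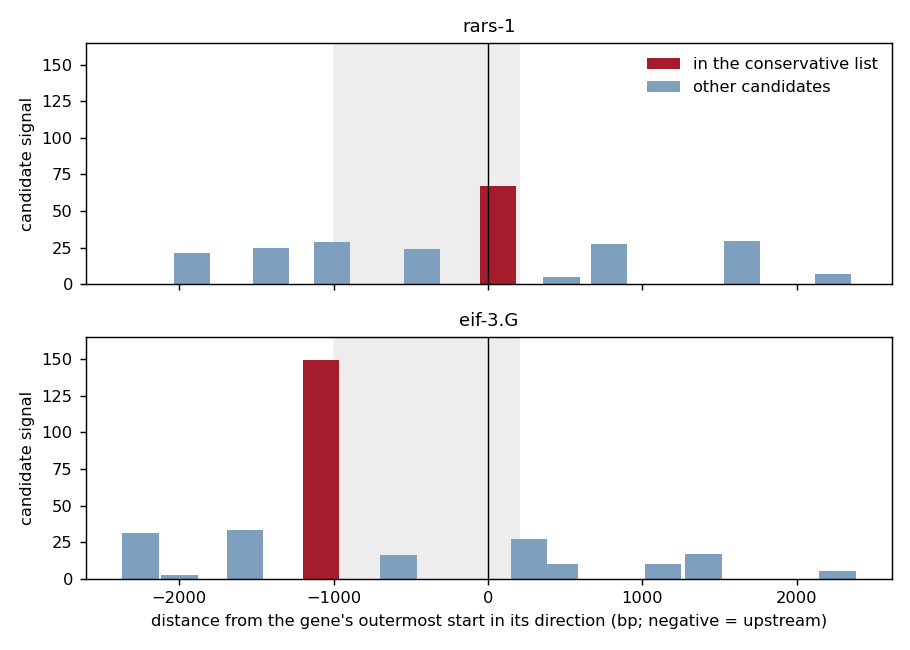
Candidate peaks around rars-1 and eif-3.G. Bars show the signal of each candidate (vertical axis, the authors' signal value) by its distance from the gene's outermost start in bp (horizontal axis), with bar width equal to peak width, grey shading for the promoter window and red for peaks in the conservative list. The rars-1 peak of 67.3 stands at the start, and the eif-3.G peak of 149.8 stands beyond the upstream edge of the window.

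Across all candidates, translation genes were slightly above other genes and far from the level of listed peaks. A candidate lay in the window of 56 of the 63 genes (88.9%), against 78.8% of all protein-coding genes. The median of the highest signal was 27.1 over the 63 genes (quartiles 16.6 and 35.8), against 23.8 over all 19910 other protein-coding genes (quartiles 11.6 and 32.8). Above the upper quartile of all genes, a signal of 32.8, lay 20 of the 63 genes (31.7%), against 4973 of the 19910 other genes. By class, the medians were 25.6 for initiation factors, 28.03 for elongation factors and 30.3 for tRNA synthetases. Cytosolic ribosomal protein genes (81 genes) had a median of 29.6, and mitochondrial ribosomal protein genes (70 genes) had 22.9. Apart from rars-1, the highest value of any of the 63 genes was 48.4.

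The classes ran in the same order in both replicates, with initiation factors lowest and synthetases highest. From replicate 1's own candidates, the medians were 15.5 for initiation factors, 17.3 for elongation factors and 18.2 for synthetases, against 12.2 for other genes. From those of replicate 2, the medians were 5.93, 12.7 and 14.6 in the same order, against 10.4 for other genes. Synthetases and elongation factors were thus above other genes in each replicate, and initiation factors were above them in replicate 1 and below them in replicate 2.

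Genes with more annotated starts have more window to be searched, and the synthetases had more starts. They averaged 1.94 starts per gene, elongation factors 2.17 and initiation factors 1.36, against 1.47 for other genes. With the outermost start only, the median was 25.4 for synthetases, 27.9 for elongation factors and 24.9 for initiation factors, against 22.3 for other genes, so the synthetases lost most of their lead over the initiation factors. The 15 synthetases with 1 start had a median of 24.3, against 22.1 for other genes with 1 start. The 17 with more starts had 30.8, against 28.3 for other genes with more starts. In a narrower window, 500 bp upstream to 100 bp downstream, 48 of the 63 genes (76.2%) had a candidate, against 59.1% of all protein-coding genes. The medians there were 22.2 for the 63 genes and 14.2 for other genes.

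**Figure D2:**
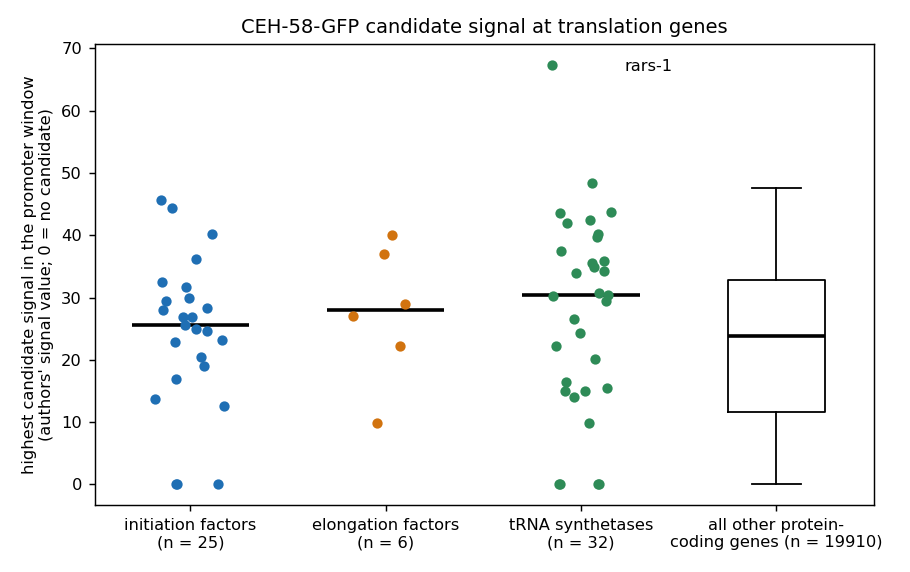
Highest candidate signal in the promoter window (vertical axis, the authors' signal value, 0 for genes without a candidate) for initiation factors, elongation factors, tRNA synthetases and all other protein-coding genes. Points are genes, thick lines are medians, and the box shows the median and quartiles of the other genes with whiskers at the 5th and 95th percentiles; rars-1 at 67.3 is the only point above 48.4.

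Among the initiation factors, the subunits of eIF2, the GTPase that brings the initiator tRNA to the ribosome, had the highest median. It was 36.2 over 3 genes. eif-2beta had 44.3, with 25.5 in replicate 1 and 18.7 in replicate 2, and its summit lay outside genes, 253 bp upstream of the nearest start. The GTP-binding subunit eif-2gamma had 36.2, with 11.0 in replicate 1 and 22.5 in replicate 2, at 182 bp downstream and inside its own coding sequence. Replicate 2 was thus the higher at eif-2gamma and the lower at eif-2beta. At eif-2alpha the window's highest value was 29.5, with 15.5 in replicate 1 and no candidate at that place in replicate 2's own list. For this peak the candidate list itself gives nearly equal signals in the 2 sets compared, 15.5 and 15.3. Replicate 2's own list held a candidate of 17.7 elsewhere in the eif-2alpha window. These 3 genes do not stand apart from the wider set, since 18.01% of all protein-coding genes lay above eif-2gamma.

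The 5 subunits of eIF2B, the exchange factor that reloads eIF2 with GTP, spread widely around a median of 24.9. eif-2Bgamma was the highest initiation factor, at 45.6, with 28.2 in replicate 1 and no candidate at that place in replicate 2's own list. The candidate list also holds a signal for each of the sets it compares, in columns that do not name their replicates. These read 28.2 and 17.2. At all 39 genes with a replicate 1 own signal, the first column equalled it. At all 26 with a replicate 2 own signal, the second column did. No label says which replicate a column holds. The summit at eif-2Bgamma lay 531 bp upstream in a coding exon of C15F1.5. eif-2Bepsilon (25.6), eif-2Balpha (24.9), eif-2Bdelta (16.9) and eif-2Bbeta (13.7) were near or below the median of all other genes. The last of these lay at 970 bp upstream, close to the edge of the window and in a coding exon of Y47H9C.8. The subunits of this complex thus ran from the top of the initiation factors to near the bottom.

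Of 11 subunits of eIF3, the scaffold that holds other factors on the small ribosomal subunit, 10 had a candidate. That is 90.9%, against 78.8% of all protein-coding genes, and the median signal of the 11 was 26.8. eif-3.C was the highest, at 40.1, with 17.3 in replicate 2, no candidate there in replicate 1's own list, and replicate columns of 25.2 and 17.3. eif-3.D followed with 32.4, with no candidate there in either replicate's own list. Its summit lay 701 bp upstream in a coding exon of R08D7.4, whose start was nearer. eif-3.B had 31.7, with 18.6 in replicate 1 and no candidate there in replicate 2's own list. The values then ran from eif-3.K (28.1) through eif-3.G (26.9), eif-3.F (26.8), eif-3.H (24.6), eif-3.E (23.2) and eif-3.L (20.4) to eif-3.J (12.6). The value of eif-3.J depended on the list, with 25.1 in the other whole-series candidate list and 31.7 in replicate 1's own list. Sequence at the eif-3.L summit was mostly repeated, with 43.7% of 31-base words found once, so the place of that signal is uncertain. eif-3.I had no candidate in this list, although replicate 1's own list held one of 35.7 in its window. Only eif-3.C exceeded the upper quartile of all genes.

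The other initiation factors lay between 19.1 and 29.97 or had no candidate. eif-1 (29.97) and eif-1.A (28.4), which guide the scanning ribosome to the start codon, had their summits nearest to other genes, vps-24 and H06H21.37. eif-6 had 22.8 and eif-4A3 19.1. eif-2A and eif-2D, which can deliver tRNA to the ribosome without eIF2, had no candidate. For eif-2D, replicate 1's own list held a candidate of 11.6. For eif-2A, replicate 2's own list held one of 5.93 and the other whole-series candidate list one of 9.98.

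All 6 elongation factors had a candidate, against 78.8% of all protein-coding genes. Above the upper quartile of all genes lay 2 of the 6 (33.3%), against 25.0% of all, and both shares rest on 6 genes. eef-2, which encodes the GTPase that moves the ribosome by a codon, had the highest value at 40.1. Its replicate columns read 36.7 and 4.32, the most unequal pair among the 56 genes with a ratio of 8.50, and replicate 1's own list held the 36.7. Replicate 2's own list held no candidate there. The IDR score was 116, where the lowest of the list is 58. The summit lay 20 bp downstream of the nearest start, which is also within the window of the neighbouring gene clsp-1.

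The paralogs eef-1A.1 and eef-1A.2 encode the factor that brings charged tRNAs to the ribosome. eef-1A.2 had 37.03, with 19.9 in replicate 1 and 15.6 in replicate 2, and its summit lay 17 bp upstream of its start. eef-1A.1 had 29.01, with 15.3 in replicate 1 and 13.4 in replicate 2. That summit lay 903 bp upstream, in an intron of rfc-4, whose start was nearer. Sequence was unique at both summits. The subunits of the exchange factor for eEF1A followed, with eef-1G at 27.1 (13.5 in replicate 1 and 16.3 in replicate 2), eef-1B.2 at 22.2 and eef-1B.1 at 9.84. eef-1B.2 lay at the upstream edge of the window, at 915 bp.

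The 32 synthetase genes covered all 20 amino acids, and 14 of them (43.8%) exceeded the upper quartile of all genes, against 4973 of the 19910 other genes. After rars-1 came the glutaminyl gene qars-1 at 48.4, with 22.5 in replicate 1 and 25.3 in replicate 2. Its summit lay in an intron of qars-1 itself, 48 bp upstream of an internal start. With 4 starts, qars-1 had the longest joined window of the 63 genes, 4604 bp, and 8 candidates in it. Its IDR score of 500 corresponds to an IDR of 0.0622, short of the threshold of 0.01. The phenylalanyl gene fars-3 (43.7) had 23.7 in replicate 1 and 21.4 in replicate 2, with a score of 460 and a summit 293 bp upstream, outside genes. At both genes the replicates differed by less than at rars-1.

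Below them, mars-1 (43.6), vars-1 (42.4), ears-2 (42.04), pars-2 (40.2) and hars-1 (39.7) lay within 3.90 of each other. These are the genes for methionyl, valyl, glutamyl, prolyl and histidyl synthetases. The mars-1 and pars-2 summits lay in coding exons of these genes themselves, 514 bp and 131 bp upstream of an internal start. That of hars-1 also lay in its own coding exon, 63 bp downstream of an internal start. mars-1 had 28.3 in replicate 1 and 12.7 in replicate 2, and vars-1 had 30.7 in replicate 1 and 15.5 in replicate 2. At ears-2 replicate 2 was the higher, with 25.1 against 18.3 in replicate 1, and its summit was nearest to the start of the neighbouring gene uncp-18. pars-2 had 18.8 in replicate 1 and 15.9 in replicate 2, and hars-1 had 21.04 in replicate 1 and 16.3 in replicate 2. At 4 of these 5 genes the replicates differed by more than these genes did from each other, pars-2 being the exception.

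At the low end, wars-1, ears-1, nars-1 and yars-1 had no candidate, and iars-1 had 9.88. The value of iars-1 depended on the list, with 36.2 in the other whole-series candidate list and 17.6 in replicate 2's own list. The tryptophanyl gene wars-1 and the tyrosyl gene yars-1 also lacked one in both replicates' own lists and in the other whole-series candidate list. ears-1 had a candidate of 34.5 in that other list and one of 18.7 in replicate 2's own list, so its absence depends on the list. For nars-1 the other list held 7.27 and replicate 1's own list 8.76. dars-1 (14.1), dars-2 (14.9), kars-1 (14.96) and nars-2 (15.5) lay below the median of other genes and at the lowest IDR score.

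For 11 amino acids there was more than 1 gene, often with unlike values. rars-1 had 67.3 and rars-2 34.9, and the phenylalanyl genes ranged from 43.7 (fars-3) through 22.2 (fars-1) to 16.4 (fars-2). In the other whole-series candidate list fars-2 had 29.7 and fars-1 again 22.2, so the order of these 2 genes depends on the list. iars-2 had 35.6 and iars-1 9.88, but in the other list iars-1 had 36.2 and iars-2 again 35.6, so that pair was nearly equal there. yars-2 had 37.5 with yars-1 at 0. The leucyl genes had 30.5 (lars-1) and 30.2 (lars-2), and the aspartyl genes 14.9 (dars-2) and 14.1 (dars-1). Pairs for 1 amino acid thus ran from nearly equal to one with and one without a candidate.

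**Figure D3:**
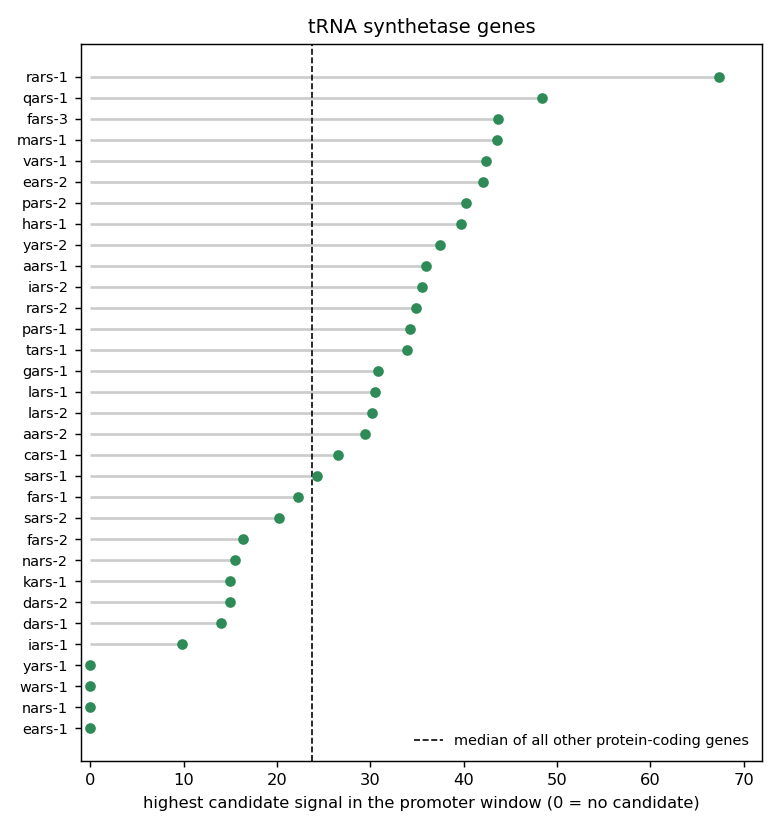
Highest candidate signal in the promoter window (horizontal axis, the authors' signal value) of the 32 tRNA synthetase genes, each on its own row and ordered by signal, with 0 for no candidate. The dashed line is the median of all other protein-coding genes, 23.8; rars-1 at 67.3 stands apart from qars-1 at 48.4, and 4 genes are at 0.

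Replicate signals were only weakly related across these genes. Over the 56 genes with a candidate, the signals in the list's unnamed replicate columns had a Spearman rho of 0.268, against 0.244 over all 15731 protein-coding genes with a candidate. These points share 2 libraries of unknown depth, and the signals were not scaled. The larger signal was 1.48 times the smaller at the median gene, against 1.53 times over all genes. Replicate 1's own list held a candidate at 39 of the 56 places (69.6%, against 57.9% over all 15731 genes) and replicate 2's at 26 (46.4%, against 57.5%). Both held one at 21 (37.5%, against 36.9%), and neither did at 12 (21.4%, against 21.5%). At the lowest IDR score of the list stood 14 of the 56 (25%), against 27.0% over all genes.

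**Figure D4:**
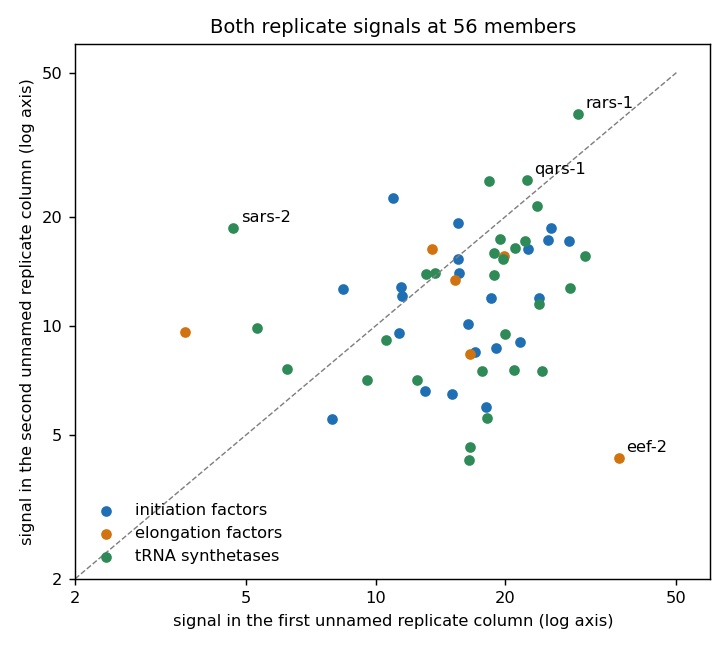
Signals of the 56 highest candidates in the candidate list's 2 replicate columns, which do not name their replicates, both on log axes, coloured by class, with the dashed line of equality. rars-1 lies near the line at the upper right (29.5 and 38.5), and eef-2 lies far from it (36.7 and 4.32).

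Summits were not gathered at the starts of these genes. Of the 56, 46 lay upstream of the nearest start in whose window they fell (82.1%, against 78.4% over all genes), and 9 lay within 100 bp of it (16.1%, against 20.2%). The median distance was 371 bp, against 353 bp over all genes. For 15 of the 56 the summit was nearest to the start of another protein-coding gene, and 21 lay in the window of another gene as well, so their signal cannot be given to 1 gene. Coding exons held 20 summits, UTR exons 6, introns 9, and 21 lay outside genes. Sequence was unique around 53 of the 56. No share over all genes is given beside these counts of nearest start, sharing, place and uniqueness, so they describe these summits only. None lay within 200 bp of a tRNA, snoRNA or snRNA gene, against 1.09% of the highest candidates over all genes.

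At the edges of the window, just inside stood aars-2 (29.4, at 987 bp upstream), eif-2Bbeta (13.7, at 970 bp), eef-1B.2 (22.2, at 915 bp) and eef-1A.1 (29.01, at 903 bp). Downstream, eif-3.G (183 bp), eif-2gamma (182 bp), fars-1 (180 bp), eef-1G (168 bp), tars-1 (125 bp) and sars-1 (104 bp) were inside. Just outside stood 7 candidates above the median of the 63 genes, all upstream. They belonged to eif-3.G (149.8), lars-2 (38.03), fars-3 (36.5), eif-3.D (34.6), lars-1 (34.4), eef-1G (29.9) and rars-1 (29.1). For eef-1G, eif-3.D, eif-3.G, lars-1 and lars-2 the outside value was higher than the best inside.

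**Figure D5:**
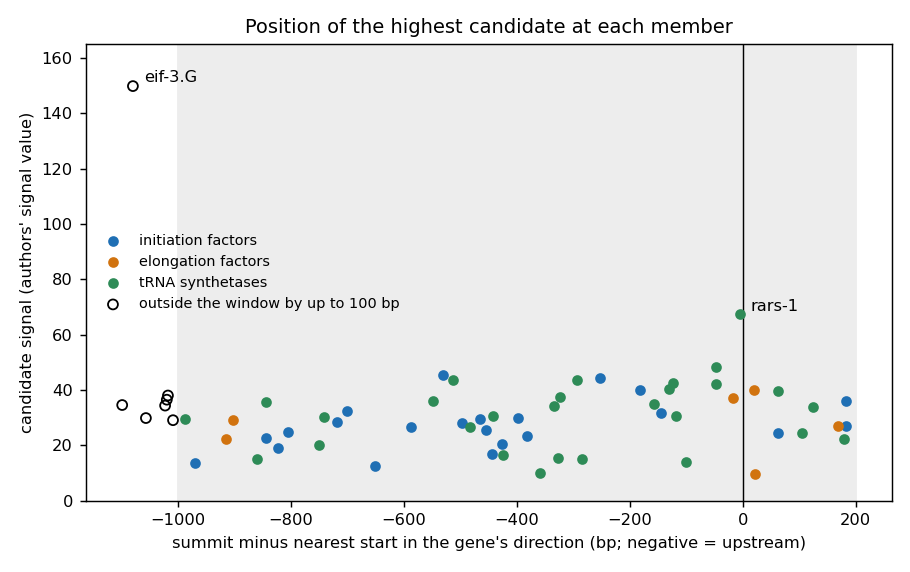
Signal of each gene's highest candidate (vertical axis, the authors' signal value) by its distance from the nearest start in the gene's direction in bp (horizontal axis), coloured by class. Grey shading is the window and open circles are candidates above the median of the 63 genes up to 100 bp outside it; rars-1 stands out at the start and eif-3.G beyond the upstream edge.

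Promoter GC content set these genes little apart, while among the words searched TTCGCG was more frequent and CACGTG less frequent than over all promoters. GC content from 250 bp upstream to 50 bp downstream of the outermost start had a median of 33.0% in the 63 genes, against 34.3% in all other protein-coding genes. Signal and promoter GC were weakly related across all 19973 genes (Spearman rho 0.188), which are not independent. Of 6 words of 6 bases, each searched on both strands, AAAAAA lay in 82.5% of the 63 promoters and 80.1% of all promoters, and GAGAGA in 20.6% and 21.8%. TAATTA lay in 11.1% and 15.5%, CTGCGT in 6.35% and 8.23%, and CACGTG in 1.59% (hars-1) and 5.83%. TTCGCG lay in 9 of the 63 promoters (14.3%) and in 6.82% of all, namely at eef-2, eef-1B.1, eif-2A, eif-2alpha, eif-2gamma, eif-3.C, qars-1, rars-2 and vars-1. Neither TAATTA nor any other of these words except AAAAAA lay in the rars-1 promoter.

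Translation genes outside the naming rule were set beside these from a list of 27 symbols, 24 of which were found. Of the 24, 19 had a candidate (79.2%, against 78.8% of all protein-coding genes), and the median over the 24 was 33.4. The highest were ife-3 (52.8), which encodes an eIF4E cap-binding protein, ifg-1 (50.2), the eIF4G scaffold, and ife-1 (47.6), another eIF4E. erfa-3, a release factor gene, had 46.9, and the poly(A)-binding protein gene pab-1 had 43.1 with replicate columns of 24.1 and 31.6. glp-4, another valyl-tRNA synthetase gene that its name keeps out of the rule, had 35.9. The mitochondrial elongation factor genes tufm-1 and tufm-2, the recycling factor gene abce-1, gcn-1 and ife-4 had no candidate. None of these 24 genes reached the signal of rars-1.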

How the data were processed

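Per the labels, the authors sonicated chromatin to 200 to 800 bp and precipitated the GFP fusion from 2 biological replicates. Per the labels, the lists are on ce11, and control alignments, not analysed here, entered them. The sources used here do not name the aligner or peak caller, and depth is unknown, so no interval from counts is given. The authors deposited a signal value per peak, an IDR score per peak and, in the ranked lists, the −log10 of the IDR. Every deposited peak fell inside the chromosomes of WBcel235, from whose RefSeq genome sequences were read. Ensembl release 115 gave 19973 protein-coding genes with 29314 distinct starts of protein-coding transcripts. Summits were assigned to windows, and the assignment was checked on made-up peaks of known position. Replicate signals are the highest signal in each replicate's own candidate list that overlaps the peak by at least 1 bp. With 1 group of 2 replicates no test between conditions exists, and genes were described by counts and medians. All 63 genes, those without a candidate included, entered each median unless stated.

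The members and lists were chosen with earlier results of these data known. Genes were named where a thresholded peak lay in the promoter or wider window, where they ranked among the 6 highest initiation factors, 4 highest elongation factors or 8 highest synthetases, where they had no candidate, where a candidate lay within 100 bp of a window edge, and for eIF2, eIF3, eef-1A.1, eef-1A.2 and eef-2. Other names, the tRNA box patterns, the counts of starts and the distances to upstream neighbours were added after values were seen. Alternatives were other windows, starts, lists and summits away from RNA genes. Scripts ran in Python 3.11.15 with pandas 2.3.3, numpy 2.4.6, matplotlib 3.10.9 and scipy 1.17.1.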

Additional observations from a re-analysis of the deposited data

How the results depend on the processing

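The number of genes with a candidate ran from 41 to 60 over all alternatives and stayed within 1.5 times of 56. The count of 1 gene with a conservative peak became 2 with the wider window and 2 where any overlap of the peak with the window sufficed. It became 0 for peaks at the highest IDR score, and 0 in each replicate's own list. The median over the 63 genes was 22.2 in the narrower window and 34.6 in the wider one, and 12.7 to 16.4 in the replicates' own lists, where all signals are lower. The difference between the 63 genes and other genes, 3.25, kept its sign under every alternative run. It was 7.99 in the narrower window, 5.06 with the other whole-series candidate list, 1.86 among genes with a candidate only, and 2.39 to 4.17 in the replicates' own lists. The initiation factor median was 17.3 in the narrower window and 5.93 to 15.5 in the replicates' own lists. Elongation factors had 21.5 in the narrower window, 36.9 in the wider one and 12.7 to 17.3 in the replicates' own lists. Synthetases had 25.1 in the narrower window, 35.1 in the wider one, 25.4 with the outermost start only and 14.6 to 18.2 in the replicates' own lists. Summits near RNA genes and ribosomal protein genes among the other genes left these medians within 1 SD of the replicates. With that other list 51 of 56 single values moved by less than 1 SD, and 5 moved by more (eif-2Bbeta 16.9, eif-3.J 25.1, fars-2 29.7, iars-1 36.2 and sars-1 12.002). The cause was not tested. Most of the 51 had the identical signal in both lists, so this count says little about how stable the values are. The SD is that of 2 replicate values and is wide where these differ, such as 22.9 at eef-2. No paired analysis was possible because there is only 1 group. Depth is unknown, so how many reads lie behind a signal cannot be stated.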

Other observations

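Genes with a close neighbour upstream on the same strand had higher values among the translation genes. Such a protein-coding neighbour, ending at most 500 bp before the gene, was present at 17 of the 63 genes (27.0%), against 18.1% of other protein-coding genes. The median signal was 34.9 for these 17 genes and 25.2 for the other 46. Among other protein-coding genes the medians were 25.6 with such a neighbour and 23.4 without. The 17 included rars-1, which begins 65 bp from the end of rpb-8, an RNA polymerase II subunit gene, and fars-3, vars-1, eif-2Bgamma and eif-3.C. They also included yars-1, with no candidate, and dars-2 (14.9) and nars-2 (15.5). Whether these genes share an operon was not tested.

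The genes lay on all 6 nuclear chromosomes, with 21 on I, 14 on II, 10 on III, 10 on IV, 7 on V and 1, eef-1A.2, on X. The median was 24.6 on I, 28.4 on II, 29.7 on III, 32.9 on IV and 16.9 on V. Other genes of those chromosomes had 24.1, 25.1, 24.6, 22.6 and 22.7 in the same order. The 10 genes on IV averaged 2.20 starts, against 1.56 for other genes there. The 7 on V, with the lower median, averaged 2.0, against 1.38 for other genes there. Whether the number of starts bears on these medians was not tested.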
